A study of Mus musculus with 6 samples.

Results

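Cytokinesis is the last step of cell division, in which a dividing cell is pinched between its daughters and then cut. The genes described here are 10 of the genes of this step, Ect2, Racgap1, Prc1, Anln, Cit, Cep55, Pdcd6ip, Tsg101, Chmp4b and Vps4b, chosen by symbol. All 10 were found among the 14870 genes of the deposited table, and all 10 were also among the 13906 genes that were tested. RNA was sequenced from primary lung-resident fibroblasts of TGFα mice, which make the growth factor TGFα while they are fed doxycycline (Dox). A CCSP-rtTA transgene, active in club cells of the airway epithelium, drives a TetO-TGFα transgene in these bitransgenic mice, so that the epithelium makes the growth factor. The mice used in the study were 10 to 16 weeks old and of both sexes, and these had been on Dox for 10 days. The cells were transfected for 72 h with stealth Aurkb siRNA (3 libraries) or with stealth control siRNA (3 libraries). Both groups therefore carried the transgenes, the Dox and the transfection, and differed in the siRNA. Whether the libraries of a group were made from separate mice or cultures is not given in the sources, and the p-values cover only the spread among these libraries, which may be technical.

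Division of the cell body starts when Prc1 bundles the antiparallel microtubules between the separating chromosomes and Racgap1, with its partner kinesin, brings Ect2 there to switch on the GTPase RhoA, which builds a ring of actin and myosin. Anln and Cit hold the ring and the later midbody together, and Cep55 then recruits Pdcd6ip (ALIX) and Tsg101, which lead the ESCRT-III filament protein Chmp4b and the ATPase Vps4b to cut the bridge, as worked out largely in human cells. The kinase encoded by Aurkb acts at both ends of this sequence, at the central spindle and in the checkpoint that delays the final cut. Ect2, Racgap1, Prc1, Anln, Cit and Cep55 are known as genes of dividing cells and are called mitotic members here. The ESCRT members Pdcd6ip, Tsg101, Chmp4b and Vps4b also act in non-dividing cells, in sorting at endosomes and in membrane repair.

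Genes that are transcribed late in the cell cycle often hold a cell cycle homology region, the word TTTGAA, near their start, where the DREAM and MuvB complexes are known to bind. The word was searched on both strands in RefSeq promoter windows of GRCm38.p6, which run from 250 bases before to 50 after each annotated start. All 10 members matched a window. The word, or its reverse complement TTCAAA, was found for 5 of the 6 mitotic members and for 1 of the 4 ESCRT members, against 20.2% of the 27025 genes with a window and 17.9% of all 32851 windows. Below are 30 bases, 5′ to 3′ on the strand of the gene, around the match nearest to a start, shown because they are what most of the mitotic members share and most of the ESCRT members lack. Capitals mark the word.
Ect2: cgactggattttTTTGAAtcggaggcggca
Racgap1: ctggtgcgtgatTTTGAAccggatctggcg
Prc1: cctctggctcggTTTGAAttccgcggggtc
Anln: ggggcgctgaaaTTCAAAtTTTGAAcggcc
Cep55: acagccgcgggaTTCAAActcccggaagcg
Pdcd6ip: caaaagaatcttTTTGAAaatttaatcatc
These stretches lie at chr3:27153822-27153851 (minus strand), chr15:99651634-99651663 (minus), chr7:80294434-80294463 (plus), chr9:22389168-22389197 (minus), chr19:38054996-38055025 (plus) and chr9:113708376-113708405 (minus). In Ect2, Racgap1, Prc1, Anln and Cep55 the first base of the word lay at position 16, 6, -5, 22 and 25 from an annotated start, counting the first transcribed base as 1. In Pdcd6ip it lay farther out, at position -134. The CCAAT box, the word bound by NF-Y, was found on either strand (CCAAT or ATTGG) for Ect2, Racgap1 and Prc1 and for 0 of the 4 ESCRT members, against 41.1% of genes with a window. A match in these windows is a description of the letters and does not show that a factor binds there.

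The reads counted to genes were 20820596 to 27572833 in the Aurkb siRNA libraries and 29350227 to 30441954 in the control siRNA libraries. Whole read counts were recovered from the deposited RPKM values, and dividing them by the size factors of the authors gave the normalized counts used here. A gene was tested if its mean reached 10 normalized counts in either group, with limma on log2(normalized count + 1), on which changes of scarce genes come out too small. It was called if it changed at least 1.5-fold and its p, adjusted by Benjamini-Hochberg over all genes tested, was 0.05 or less. By this rule 645 genes were higher (4.64%) and 1067 lower (7.67%) with Aurkb siRNA, 12.3% of those tested together, and the median log2 fold change of all genes was 0.0032. Of the 6 fibroblast genes, Col1a1 was at 244215 to 317400 normalized counts with Aurkb siRNA, against 250785 to 326182 with control siRNA. Col1a2 and Vim were abundant too and, like Col1a1, were not called, while Pdgfra and Dcn were called lower. Thy1 was scarcer, at 339 to 963 with Aurkb siRNA and 594 to 1040 with control siRNA. It was not called, but its adjusted p by limma was 0.039, lower, when replicate numbers were fitted as a block. All 5 endothelial markers were called lower, with a summed level of 2355 to 2990 normalized counts in the Aurkb siRNA libraries and 4826 to 6544 in the control siRNA libraries. Of the other marker lists, 1 of 2 tested hematopoietic genes (Cd68) and 1 of 4 epithelial genes (Sftpc, and also Cdh1 when replicate numbers were fitted as a block) were lower and 1 of each was higher (Mpo and Krt19), while 1 of 3 mesothelial genes and 2 of 4 mural genes were lower. Ptprc, the common leukocyte antigen, was at 3.84 to 6.21 normalized counts with Aurkb siRNA and 1.79 to 4.61 with control siRNA. Mpo was at 48.9, 66.3 and 64.4 with Aurkb siRNA and at 0 in 2 of the 3 control siRNA libraries. The 3 mesothelial genes had a summed level of 9813 to 20568 in the Aurkb siRNA libraries, lowest in replicate 2. In the control siRNA libraries it was 17702 to 22713, so these sums were above those of the endothelial markers in every library. In RNA from a mixture of cells, fewer cells of a type and less RNA per cell cannot be told apart.

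The siRNA target was measured first. Aurkb stood at 37.4, 52.8 and 28.9 normalized counts in the Aurkb siRNA libraries, against 99.5, 108 and 134 in the control siRNA libraries. The groups did not overlap. By limma, Aurkb fell by 1.52 on the log2 scale (adjusted p = 9.27e-04, standard error 0.23). Its mean with Aurkb siRNA was 34.9% of its control mean.

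The median absolute log2 fold change of the members was 0.14, against 0.21 for all genes tested. Of the 10 members, 0 were called by the rule above with limma and 0 with voom, against 12.3% of all genes (4.64% higher and 7.67% lower), and 2 had an unadjusted p under 0.05. A list of 10 genes is too short to tell 0 called from that share of called genes. At an adjusted p of 0.05 or less with no limit on size, Tsg101 was higher and Chmp4b was lower, 2 of 10 members against 40.0% of all genes tested (19.5% higher and 20.5% lower). The median log2 fold change of the members was 0.10, and their log2 changes ran from -0.38 for Chmp4b to 0.23 for Anln. The 95% intervals of 9 members lay within a 1.5-fold change in either direction, a log2 change of 0.585, and only that of Cit, from -0.41 to 0.66, reached beyond it.

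**Figure D1:**
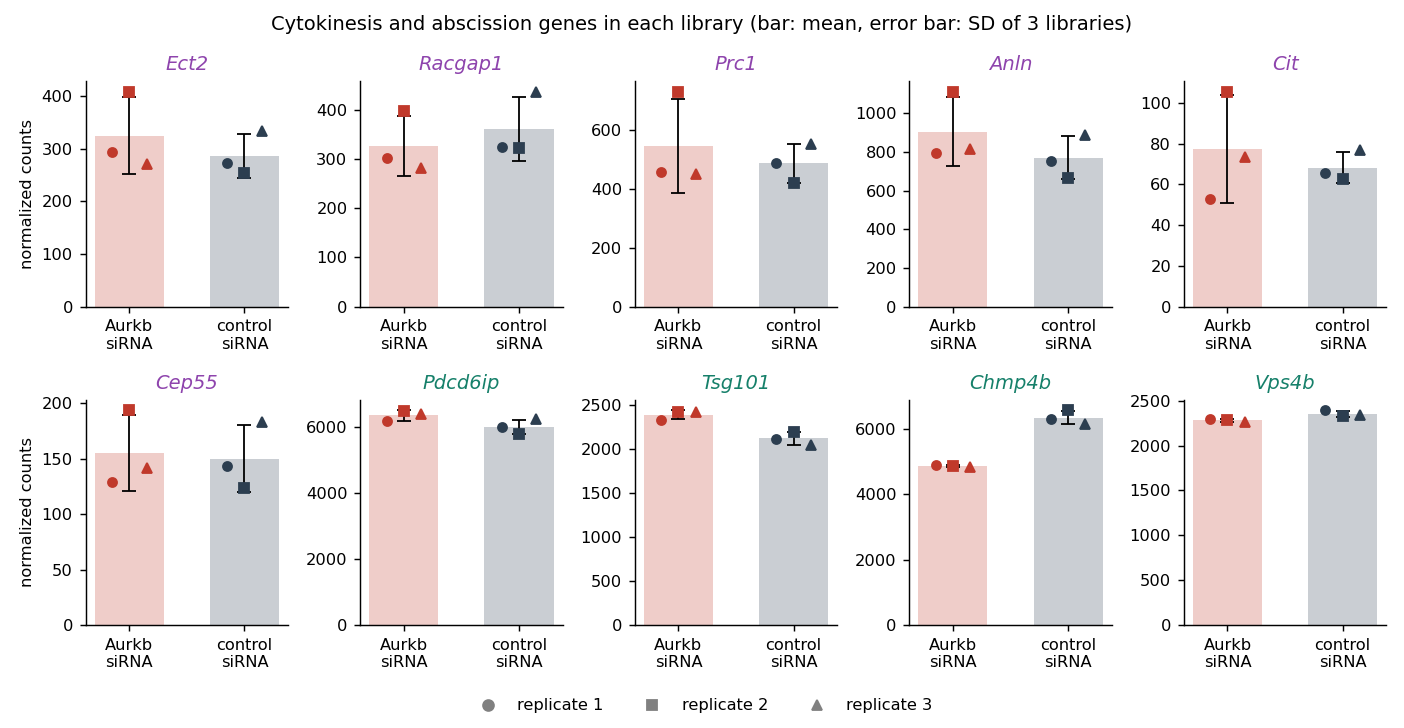
Normalized counts (y axis, from 0) of the 10 members in each library, with Aurkb siRNA in red and control siRNA in dark blue. Bars are means, error bars the SD of 3 libraries, and point shapes the replicate number. The groups overlap for the 6 mitotic members (purple titles), while the Chmp4b points of the Aurkb siRNA libraries, at 4828 to 4873, all lie below those of the control siRNA libraries, at 6141 to 6559.

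Among the members that set the place of the furrow, Ect2, the guanine nucleotide exchange factor that activates RhoA, stood at 295, 409 and 272 normalized counts with Aurkb siRNA, against 273, 254 and 334 with control siRNA. The groups overlapped, with the highest value in Aurkb siRNA replicate 2 and the lowest in control siRNA replicate 2. By limma it had a log2 fold change of 0.17 (standard error 0.16, adjusted p = 0.44). The gene lies at chr3:27097222-27154253 of GRCm38. Racgap1, the GTPase-activating subunit of centralspindlin (chr15:99620496-99651656), stood at 302, 396 and 281 with Aurkb siRNA and at 324, 322 and 437 with control siRNA. Its groups overlapped too, with the highest value in control siRNA replicate 3, and its log2 fold change of -0.14 (standard error 0.16, adjusted p = 0.494) made it the only mitotic member with a negative sign. Prc1, the microtubule bundler of the spindle midzone (chr7:80294445-80316259), stood at 458, 729.8 and 451 with Aurkb siRNA and at 487, 420.2 and 553 with control siRNA. The 729.8 of Aurkb siRNA replicate 2 was above every other library, and the remaining libraries of both groups overlapped (log2 fold change 0.14, standard error 0.18, adjusted p = 0.574). The span of Prc1 lies almost wholly within that of Rccd1, which stood at a mean of 129 normalized counts with Aurkb siRNA, against 115 with control siRNA. Whether the counting used strand is not given in the sources used here, so reads from exons that overlap cannot be assigned to either gene with certainty.

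Of the members at the ring and the midbody, Anln, the anillin scaffold that ties actin, myosin, septins and RhoA together (chr9:22331214-22389211), was the most abundant by count. It stood at 792, 1111 and 812 normalized counts with Aurkb siRNA, against 753, 667 and 889 with control siRNA. Only control siRNA replicate 3 lay within the range of the Aurkb siRNA libraries. The log2 fold change of 0.23 (standard error 0.14, adjusted p = 0.232) was the largest positive value among the members and did not pass. Anln shares 653 bases of annotated span with 9530077C05Rik, a scarce gene that was higher (log2 fold change 0.79, adjusted p = 0.00786). Cit, the citron kinase of the midbody (chr5:115845224-116008953), was the scarcest member, at 52.8, 106 and 73.6 with Aurkb siRNA and 65.4, 62.7 and 76.9 with control siRNA, which rest on 55 to 102 reads in the Aurkb siRNA libraries and 68 to 84 reads in the control siRNA libraries. The Aurkb siRNA libraries held both the lowest and the highest value of Cit (log2 fold change 0.13, standard error 0.24, adjusted p = 0.705). Cep55, the midbody protein that recruits the ESCRT machinery (chr19:38054970-38074425), stood at 129, 194 and 142 with Aurkb siRNA and 143, 123.5 and 183 with control siRNA. Its means were 155 ± 34.3 with Aurkb siRNA and 150.0 ± 30.3 with control siRNA (SD, n = 3 libraries each), with a log2 fold change by limma of 0.04 (standard error 0.19, adjusted p = 0.881). Of the 6 mitotic members, 0 reached an adjusted p of 0.05 or less in this limma fit, against 40.0% of all genes tested. The count was also 0 in each of the 16 alternatives (15 for Cit), and 0 had an unadjusted p under 0.05 in this fit. Their median standard error was 0.17, against 0.0837 for all genes tested, so not passing does not show that they were unchanged.

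**Figure D2:**
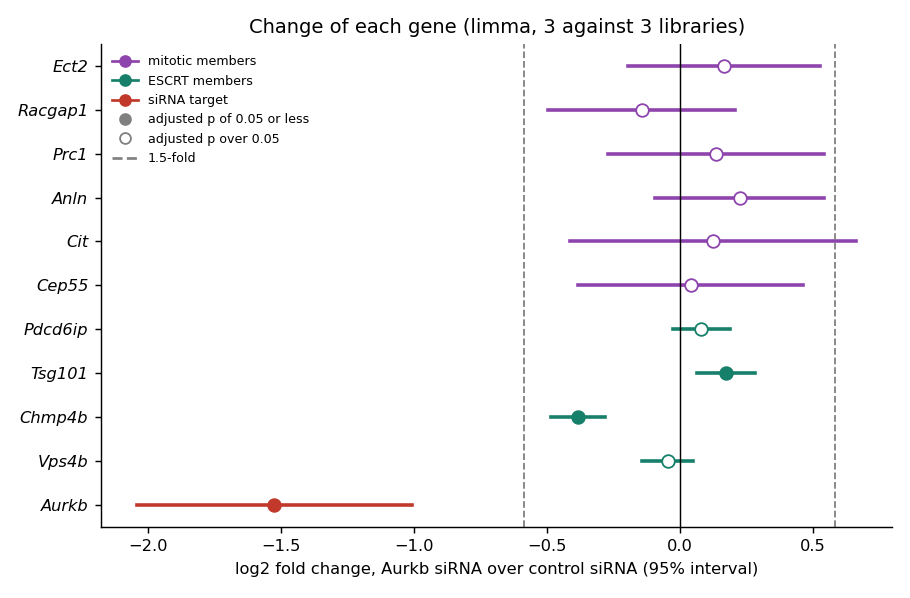
Log2 fold change of Aurkb siRNA over control siRNA (x axis) for the 10 members and Aurkb, with 95% intervals from limma. Filled points have an adjusted p of 0.05 or less, and dashed lines mark 1.5-fold. Tsg101 at 0.17 and Chmp4b at -0.38 are the filled members, both inside the dashed lines, and Aurkb at -1.52 lies outside them.

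The ESCRT members were measured far more precisely. Pdcd6ip, which encodes ALIX, a bridge between Cep55 and ESCRT-III (chr9:113651744-113708279), had 6175, 6481 and 6384 normalized counts with Aurkb siRNA, against 5989, 5783 and 6224 with control siRNA. The groups overlapped at Aurkb siRNA replicate 1 and control siRNA replicate 3, with a log2 fold change of 0.08 (standard error 0.05, adjusted p = 0.208). Tsg101, the ESCRT-I subunit that binds Cep55 beside ALIX (chr7:46888949-46926320), was at 2328, 2411 and 2417 with Aurkb siRNA and 2112, 2192 and 2041 with control siRNA. Every Aurkb siRNA library lay above every control siRNA library. Tsg101 rose 1.13-fold (limma, log2 fold change 0.17, standard error 0.05, adjusted p = 0.0181), to a mean of 2385 ± 49.5 with Aurkb siRNA, against 2115 ± 75.8 with control siRNA (SD, n = 3 libraries each). It no longer passed without Aurkb siRNA replicate 3 (adjusted p = 0.0673) or without control siRNA replicate 3 (adjusted p = 0.064), and its adjusted p ran from 0.00873 to 0.0673 over the alternatives. Tsg101 shares 3105 bases of annotated span with Uevld, a related gene that was lower with Aurkb siRNA (limma, log2 fold change -0.29, adjusted p = 0.0193).

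Chmp4b, the main filament-forming subunit of ESCRT-III (chr2:154657026-154694783), moved most among the members. It measured 4873, 4867 and 4828 normalized counts with Aurkb siRNA, against 6308, 6559 and 6141 with control siRNA. The Aurkb siRNA libraries lay close together and all below the control siRNA libraries. The mean of Chmp4b with Aurkb siRNA was 76.6% of its control mean. By limma, Chmp4b was lower (log2 fold change -0.38, standard error 0.05, adjusted p = 2.59e-04), with an interval of the log2 fold change from -0.49 to -0.28. It passed the adjusted p in each of the 16 alternatives, where the log2 change ran from -0.41 to -0.35, and stayed under 1.5-fold in each. The fall of the endothelial markers ran in the same direction, and its part in that of Chmp4b was not tested. Vps4b, the ATPase that takes ESCRT-III filaments apart (chr1:106770788-106796725), was at 2295, 2284 and 2267 with Aurkb siRNA and 2394, 2328 and 2342 with control siRNA. These groups did not overlap either, but the difference was small, 96.9% of the control level, and did not pass (log2 fold change -0.05, standard error 0.04, adjusted p = 0.433). In all, the groups did not overlap for 3 of the 10 members (1 higher and 2 lower), against 52.2% of all genes tested (26.0% higher and 26.2% lower).

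Levels between genes were compared per length, in RPKM. Chmp4b was the most abundant member, at 112 RPKM with Aurkb siRNA and 145 RPKM with control siRNA, followed with Aurkb siRNA by Tsg101 at 48.1, Pdcd6ip at 37.7 and Vps4b at 25.8, and with control siRNA by Tsg101 at 42.5, Pdcd6ip at 35.5 and Vps4b at 26.5. The ranges of these 4 genes did not overlap within either group. The mitotic members followed at lower levels with Aurkb siRNA, Prc1 at 6.24 RPKM, Anln at 6.16, Racgap1 at 3.83, Ect2 at 2.82, Cep55 at 1.40 and Cit at 0.413. With control siRNA Prc1 was at 5.55 RPKM, Anln at 5.22, Racgap1 at 4.21, Ect2 at 2.48, Cep55 at 1.35 and Cit at 0.365. Prc1 and Anln could not be ordered, since their ranges overlapped in both groups. Racgap1 overlapped both of them with control siRNA, and Racgap1 and Ect2 overlapped with Aurkb siRNA. The least abundant ESCRT member, Vps4b, thus lay above the most abundant mitotic member in every library.

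The mitotic members also varied together between libraries of one group. All 6 were highest in replicate 2 among the Aurkb siRNA libraries and all 6 were highest in replicate 3 among the control siRNA libraries. In Aurkb siRNA replicate 2 they lay 0.30 to 0.50 above the mean of their group on the log2 scale, and in control siRNA replicate 3 they lay 0.17 to 0.31 above it. The deviations of the 4 ESCRT members stayed between -0.04 and 0.03 in the Aurkb siRNA libraries and between -0.05 and 0.05 in the control siRNA libraries. The coefficient of variation of the mitotic members ran from 18.8% to 34.4% with Aurkb siRNA and from 11.02% to 20.2% with control siRNA, and that of the ESCRT members from 0.509% to 2.47% with Aurkb siRNA and from 1.47% to 3.68% with control siRNA. Counting error at the mean read number was 3.45% to 11.7% for the mitotic members and 1.27% to 2.10% for the ESCRT members. The spread of the mitotic members was thus above their counting error with Aurkb siRNA, while Cit with control siRNA, at 11.02%, was not. With Aurkb siRNA, Chmp4b at 0.509%, Vps4b at 0.61% and Tsg101 at 2.07% were under their counting errors of 1.32%, 2.06% and 2.10%. Vps4b with control siRNA, at 1.47%, was too. Such small values likely understate the spread. As a description over the same 6 libraries, Pearson's r between pairs of mitotic members ran from 0.608 to 0.969, with a median of 0.868 over 15 pairs, and that over the 6 ESCRT pairs from -0.877 to 0.836. These values also hold the difference between the groups. With the mean of each group taken out, r ran from 0.729 to 0.987 for the mitotic pairs, with a median of 0.929. For the ESCRT pairs it then ran from -0.839 to 0.802. A list of 16 genes of dividing cells was highest in the same 2 libraries for all 16 genes, with a mean deviation of 0.34 in Aurkb siRNA replicate 2 and 0.18 in control siRNA replicate 3.

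**Figure D3:**
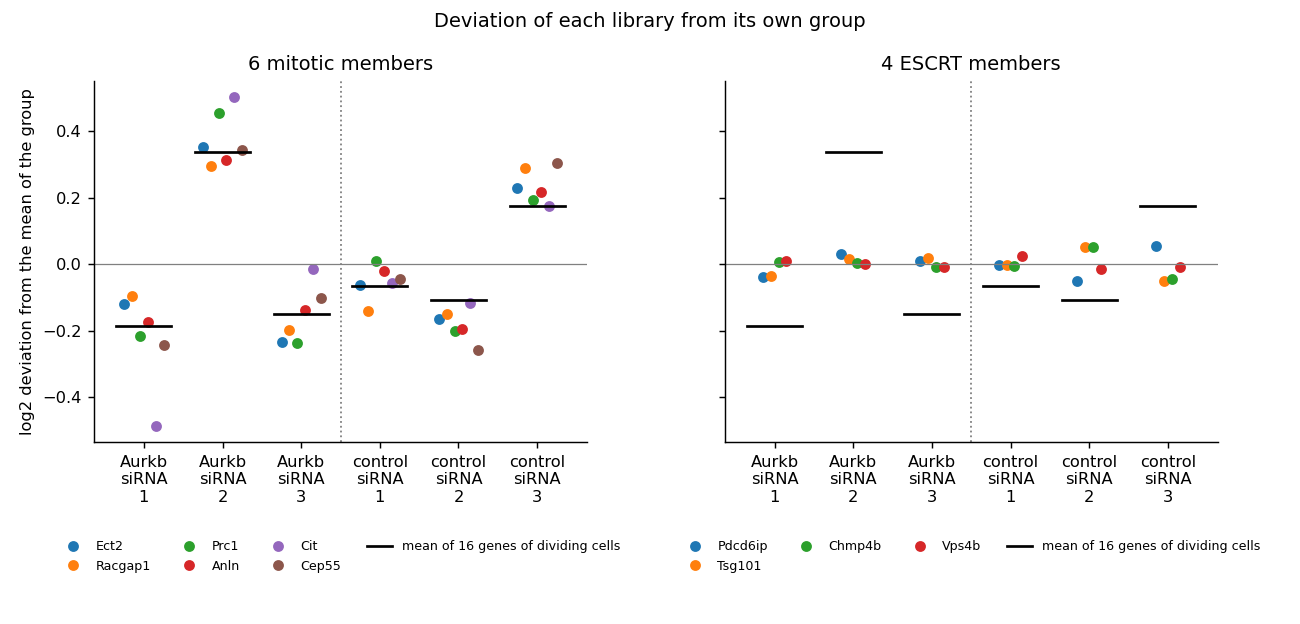
Deviation of each member from the mean of its own group (y axis, log2 of normalized counts) in each library (x axis), with mitotic members left and ESCRT members right. Black bars give the mean deviation of 16 genes of dividing cells. Mitotic members lie up to 0.50 above their group in Aurkb siRNA replicate 2, while ESCRT members stay within -0.05 to 0.05 in all 6 libraries.

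The sign of several mitotic members turned with single libraries. Without Aurkb siRNA replicate 2 the log2 fold changes of Ect2, Prc1, Cit and Cep55 were -0.01, -0.09, -0.12 and -0.13, that of Anln was 0.07 and that of Racgap1 was -0.29, and none of the 6 passed. Cep55 also had a negative value, -0.09, without control siRNA replicate 2, and Racgap1 a value of 0.0018 without control siRNA replicate 3. The median of the 10 members was -0.07 without Aurkb siRNA replicate 2. Of the genes of dividing cells, Mki67, the antigen Ki-67, had 479.7, 784 and 563 normalized counts with Aurkb siRNA, against 706, 606 and 880.4 with control siRNA (log2 fold change -0.28, adjusted p = 0.255). Without Aurkb siRNA replicate 2 its log2 fold change was -0.48 and passed (adjusted p = 0.0327). Top2a, topoisomerase II of mitotic chromosomes, was at 945 ± 203 with Aurkb siRNA and 936 ± 155 with control siRNA, and Ccnb1, cyclin B1, at 325 ± 95.4 with Aurkb siRNA and 287 ± 21.0 with control siRNA (SD, n = 3 each). Of the 16 genes, 0 were called with limma and 0 with voom, against 12.3% of all genes with limma, and 2 had an unadjusted p under 0.05. Both had an adjusted p of 0.05 or less, as had 40.0% of all genes tested. These were Ube2c, an enzyme of the anaphase-promoting complex, which was higher (log2 fold change 0.48, adjusted p = 0.0267), and Nusap1, a spindle protein, which was lower (-0.50, adjusted p = 0.0316), both named after their values were seen. Nusap1 kept its adjusted p under the threshold only when Aurkb siRNA replicate 2 was the library left out, where it was called lower at -0.70, and Ube2c lost its without any single control siRNA library (adjusted p 0.0585 to 0.0737).

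The genes most like the mean of the 6 mitotic members were sought among 12097 other genes whose mean reached 50 normalized counts in either group. By Pearson's r over the 6 libraries the closest were Adam12 (r = 0.988), a metalloprotease of the ADAM family, Casc5 (r = 0.986), a kinetochore scaffold, Slit3 (r = 0.984), a secreted guidance protein, 4930503L19Rik (r = 0.976) and Plk1 (r = 0.975), Polo-like kinase 1. Adam12 and Slit3 are not genes of cell division. As the highest of 12097 values over only 6 libraries, these r are high by selection and do not show a shared control. Slit3, for example, had 14779.8, 18908 and 15213 normalized counts with Aurkb siRNA, against 15329.9, 15167 and 17470.5 with control siRNA. It was highest in the same 2 libraries as the mitotic members, which its choice by r makes likely.

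Other genes of the same steps were read from 3 pathway lists. The rule set beforehand named the called genes and the 3 largest changes of each list, so these were also picked by their values. Of 11 genes of the central spindle, 1 passed an adjusted p of 0.05 higher, 1 passed lower, Aurkb itself, and 9 did not pass, against 40.0% of all genes passing in either direction (19.5% higher and 20.5% lower), with a median log2 fold change of 0.04. The gene that rose was Arhgap11a, a GTPase-activating protein for RhoA, at 497, 669.8 and 506 normalized counts with Aurkb siRNA, against 402, 387 and 428 with control siRNA. Its groups did not overlap (log2 fold change 0.45, standard error 0.11, adjusted p = 0.0136), but without control siRNA replicate 2 it missed the threshold narrowly (adjusted p = 0.0504). Kif20b, a kinesin of the midbody, was at 264 ± 41.3 with Aurkb siRNA and 235 ± 30.0 with control siRNA (SD, n = 3 each; log2 fold change 0.17, adjusted p = 0.361 from limma).

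Of 17 genes of the contractile ring, 9 passed higher and 2 lower, against 19.5% higher and 20.5% lower among all genes, and their median log2 fold change was 0.19. In the fit with the block, 11 passed higher and 4 lower, against 23.3% higher and 24.8% lower among all genes, the additional genes being Rhoa and Diaph3 (higher) and Myl12b and Sept2 (lower), named after their values were seen. The septins, filament proteins that line the furrow, went in both directions. Sept6 had 207, 266 and 233 normalized counts with Aurkb siRNA, against 120.1, 122.6 and 135 with control siRNA, with no overlap, and was called higher, the largest change of the list (log2 fold change 0.89, standard error 0.12, adjusted p = 5.33e-04). Sept11 rose to 8506 ± 319 with Aurkb siRNA, against 6056 ± 250.1 with control siRNA (SD, n = 3 each; log2 fold change 0.49, adjusted p = 1.53e-04 from limma). Sept7 was higher too (0.18, adjusted p = 0.0254), while Sept9 was lower (-0.22, adjusted p = 0.00885) and Sept2 had a log2 fold change of -0.11 (adjusted p = 0.0977, and 0.0496 with the block). Sept7 and Sept9 were also named after their values were seen. Rhob, a relative of RhoA, was at 5464, 5538 and 5989 with Aurkb siRNA and 3841, 4287 and 4385 with control siRNA (log2 fold change 0.44, standard error 0.06, adjusted p = 7.10e-04). Rhoc and Diaph1, a formin that nucleates actin, rose by 0.30 and 0.40 on the log2 scale, and Myh10, non-muscle myosin IIB, fell by 0.38. Myh9, a related myosin of the list, rose by 0.31 (limma, adjusted p = 0.0126). It was the more abundant, at 245 RPKM with Aurkb siRNA, against 62.4 RPKM for Myh10. All of these were named after their values were seen. These genes also serve the actin cytoskeleton of cells that do not divide.

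Of the other genes of ESCRT and abscission, about the same share passed as of all genes. Of 29 listed, 28 were tested, of which 6 passed higher, 5 passed lower and 17 did not pass, against 19.5% higher and 20.5% lower among all genes tested, with a median log2 fold change of 0.05. The untested gene was Tex14, an inhibitor of abscission in germ cells, which stayed under 10 normalized counts in every library. Chmp4c, the ESCRT-III subunit that human Aurora kinase B phosphorylates in the abscission checkpoint, had 115, 112 and 117 normalized counts with Aurkb siRNA, against 65.4, 72.8 and 77.8 with control siRNA. The groups did not overlap, and Chmp4c was called higher (log2 fold change 0.67, standard error 0.13, adjusted p = 0.00352), the reverse of its paralog Chmp4b. On the log2(RPKM + 1) scale its change was 0.44, under 1.5-fold, with an adjusted p of 0.00169.

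Ist1, an ESCRT-III-like protein that recruits the microtubule-severing enzyme spastin to the midbody, fell to 1227, 1287 and 1269.7 normalized counts with Aurkb siRNA, against 1829, 1777 and 1718 with control siRNA (log2 fold change -0.49, standard error 0.05, adjusted p = 1.17e-04). Spast, the gene of spastin, named after its values were seen, was also lower, at 983 ± 62.1 with Aurkb siRNA and 1290.2 ± 27.9 with control siRNA (SD, n = 3 each; log2 fold change -0.39, adjusted p = 9.76e-04 from limma). Vps37b, an ESCRT-I subunit that pairs with Tsg101, rose to 432, 472 and 448 with Aurkb siRNA, against 332, 347 and 343 with control siRNA (log2 fold change 0.40, standard error 0.07, adjusted p = 0.00233). None of these 3 reached 1.5-fold.

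**Figure D4:**
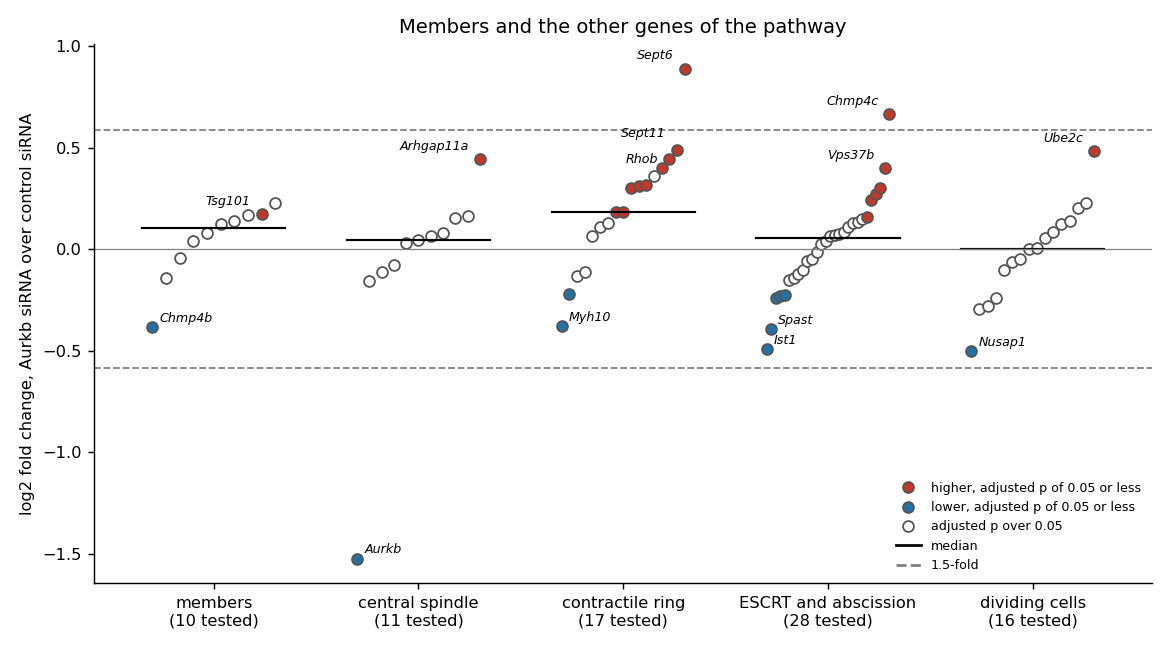
Log2 fold change of Aurkb siRNA over control siRNA (y axis) for the members and the 4 lists of related genes (x axis, with the number tested), one point per gene in order of its change. Red and blue points passed an adjusted p of 0.05 higher and lower, black lines are medians and dashed lines mark 1.5-fold. Only Sept6 at 0.89, Chmp4c at 0.67 and Aurkb at -1.52 lie past the dashed lines.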

How the data were processed

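Total RNA of 6 samples was sequenced. The submitters' processing notes list the mm10 genome and the tools bcl2fastq, CASAVA 1.8, TopHat and DESeq. Annotation, strand setting and counting tool: not given in the sources used here. Per library, the deposited values are RPKM (reads scaled by gene length and by the counted reads). The authors also deposited signal values, which are group and overall means of counts scaled by size factors. Columns deposited by the authors with fold changes, log2 ratios and p-values hold their own comparison and were not used, nor was their table of significant genes.

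Read counts were recovered from the RPKM values and the overall means, and 100.0% came out whole within 0.001. They were divided by the size factors (0.7608 to 1.1155). The design had foreseen this step. Genes whose mean reached 10 normalized counts in either group were fitted as log2(normalized count + 1) with limma 3.58.1 (trend, R 4.3.3, 4 residual degrees of freedom) and Benjamini-Hochberg adjustment over all genes. The fit was tested on simulated data. Alternatives were other scalings, pseudocounts and filters, log2(RPKM + 1), voom, a replicate block and leaving out each library. Python 3.11.15 was used for tables and figures, with matplotlib 3.10.9, numpy 2.4.6 and pandas 2.3.3. Promoter windows and coordinates came from RefSeq on GRCm38.p6, the assembly behind mm10.

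The members, lists and tests were chosen with earlier results of these data known. The named genes were the members, Aurkb, every called gene and the 3 largest changes of each pathway list, Mki67, Top2a, Ccnb1 and the 5 genes most like the mitotic members. In the table, 7 listed genes (5 septins written as dates, Diaph1 and Diaph3) were matched by Entrez number. To see whether equal replicate numbers mark paired libraries, deviations from the group means were correlated across genes. The same number gave 0.395, 0.173 and 0.214, and different numbers -0.243 to 0.049. Deviations cancel out within a group, so high values for equal numbers pull the others down. Equal numbers may thus mark pairs, but the mitotic members were highest in libraries of different number. The main fit used no pairing, and the replicate block was an alternative.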

Additional observations from a re-analysis of the deposited data

How the results depend on the processing

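Of 159 values of members under the 16 alternatives, 157 kept their side of the threshold, with any change of sign within the spread of the replicates, and 2 did not, both of Tsg101. The number of members called was 0 in every alternative. With the replicate block 694 genes were called higher and 1171 lower. With no limit on size, 2 members had an adjusted p of 0.05 or less in that fit, against 48.1% of all genes tested. The block changed no call of a member, of the central spindle, of the ESCRT and abscission list or of the genes of dividing cells. In the contractile ring list 11 genes then passed higher and 4 lower. With log2(RPKM + 1), 311 genes were higher and 531 lower, 0 genes of the contractile ring and 0 of the ESCRT and abscission list were called, Cit and Sept6 were under its minimum of 1 RPKM, and Chmp4c was at 0.44. When single libraries were left out, the genes called higher ran from 575 to 633, those called lower from 898 to 1113, and the members at an adjusted p of 0.05 or less from 1 to 2. The median log2 fold change of the members then ran from -0.07, without Aurkb siRNA replicate 2, to 0.18. With the other scalings the median log2 fold change of all genes lay between 0.009 and 0.0277, against 0.0032 in the main fit. For the mitotic members the spread between libraries sets the limit, with standard errors of 0.14 to 0.24 on the log2 scale against 0.04 to 0.05 for the ESCRT members.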
